A study of Rattus norvegicus with 9 samples.

Results

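The genes described here are 8 members of the neuronal cytoskeleton, Nefl, Nefm, Nefh, Ina, Tubb3, Map2, Mapt and Map1b, in the injured and stimulated rat spinal cord. They were chosen by symbol, as the neurofilament subunits and the best known tubulin and microtubule-binding proteins of neurons. The count table lists 30507 rows, 22777 of them with a count in at least 1 library, and each of the 8 symbols stood for a row that passed the filter on low counts in all 3 comparisons. RNA was taken at 35 days post-injury (dpi) from the T9-T11 spinal cord of female wild-type Sprague-Dawley rats, which were 8 weeks old when they were bought, with 3 rats in each of 3 groups. In the study's methods, the Sham rats had a laminectomy without contusion (the labels call them untreated), the SCI rats had a laminectomy, a contusion at T10 and a plug without an electrode, and the SCI + SCS rats had the same contusion, an epidural electrode and stimulation at 10 kHz for 2 h per day from 1 dpi. Electrode and stimulation therefore came together in SCI + SCS and cannot be told apart here. The study had a group with an electrode and no stimulation, but its RNA was not sequenced. The methods kept rats for further experiments only where the mechanical withdrawal threshold was low. The labels name a single batch, and they mark the samples as whole tissue.

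Neurofilaments are the intermediate filaments that fill large axons. Their subunits are the light (Nefl), medium (Nefm) and heavy (Nefh) chains together with α-internexin (Ina), and their amount sets the width of the axon and so the speed of conduction. Microtubules run alongside them and carry transport. Neurons build part of their microtubules from βIII-tubulin (Tubb3) and bundle them with MAP2, which lies mainly in dendrites, with tau (Mapt), which lies mainly in axons, and with MAP1B, which is abundant in growing axons. Most neurofilament and tubulin protein of axons is made in the cell body and travels slowly down the axon. The mRNA of such proteins in a piece of cord therefore comes mainly from cell bodies in that piece. Part of the protein can come from neurons elsewhere.

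In the coordinates of mRatBN7.2, the build named in the submitters' processing notes, Nefl covers chr15:42301916-42305793 on the plus strand and Nefm covers chr15:42360454-42365755 on the minus strand. These neighbours are 54660 bases apart and point their 3′ ends at each other. Nefh lies at chr14:79830362-79840351, Ina at chr1:245896775-245908330, Tubb3 at chr19:51457184-51466243, Map2 at chr9:67723371-67979809, Mapt at chr10:89138627-89236129 and Map1b at chr2:30817261-30910317. All 8 are annotated as protein-coding genes, and each span is the whole gene with its introns and UTRs.

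RefSeq promoter sequences of the GRCr8 build, another build than that of the files, were read for 4 members, Ina, Tubb3, Map2 and Map1b, and not for Nefl, Nefm, Nefh and Mapt. Tubb3 and Map2 are shown because they were the members that differed least and most between SCI and Sham. Each line gives the 150 bases before the annotated start, with letters of a searched motif in capitals.
Tubb3, chr19:68365537-68365686, plus strand: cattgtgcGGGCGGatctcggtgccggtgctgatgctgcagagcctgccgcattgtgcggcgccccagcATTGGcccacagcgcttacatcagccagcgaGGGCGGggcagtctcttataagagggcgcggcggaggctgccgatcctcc
Map2, chr9:75346540-75346689, plus strand: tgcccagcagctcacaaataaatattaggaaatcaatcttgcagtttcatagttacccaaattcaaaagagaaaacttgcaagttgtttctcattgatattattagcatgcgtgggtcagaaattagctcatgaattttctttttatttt
The motifs were the TATA box TATAAA, the CCAAT box CCAAT and the GC box GGGCGG, searched on both strands of the 250 bases before the start, and no matches overlapped. The Tubb3 window held 2 GC boxes, 142 and 50 bases before the start, and a CCAAT box on the other strand, and its GC content was 68%. The Map2 window held none of the 3 motifs and had a GC content of 32%, against a median of 51.2% over 33469 promoters. Ina had 2 GC boxes on the other strand in a window of 70.8% GC, and Map1b had a TATA box 48 bases before the start in a window of 63.6% GC. Of all promoters, 12.9% held the TATA box, 34.0% the CCAAT box and 30.5% the GC box, and a match describes letters only. RefSeq annotates several transcripts for Map2, and the window stands for a single start.

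Levels are given as CPM, counts relative to the library total, scaled by TMM over the 9 libraries. Totals ran from 62844376 to 88358570 counts per library, and the lowest count of any member in any library was 331, for Map2, so that counting error is small beside the spread between rats. A similar spread was visible in other neuronal genes. The summed level of 9 pan-neuronal genes (Rbfox3, Snap25, Syt1, Syp, Eno2, Elavl3, Elavl4, Thy1 and Uchl1) was 6279, 4453 and 3650 CPM in Sham replicates 1 to 3, 1940, 1264 and 889 in SCI and 2008, 2267 and 2896 in SCI + SCS. In bulk tissue, fewer neurons and less of a transcript per neuron cannot be told apart. Libraries of the same group came from different rats as far as the labels show. The p-values weigh a difference between groups against the spread between the 3 samples within each group. Genes were called at a Benjamini-Hochberg adjusted p under 0.05 in edgeR, with the adjustment made over every gene in the comparison, and a DEG also had |log2FC|>1.

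The first question was what contusion had done to the neuronal cytoskeleton at 35 dpi. All 8 members were lower in SCI than in Sham, and all 8 were downregulated DEGs. Of the 17822 genes tested, 25.0% were called lower, 24.3% were called higher and 13.6% were downregulated DEGs. The groups of 3 libraries did not overlap for 7 of the 8 members, which was also the case, in the lower direction, for 31.1% of all genes. The median log2FC of the members was -2.30, beside 0.015 over all genes, and single members ran from -3.74 (Map2) to -1.38 (Tubb3).

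The neurofilament light chain Nefl, which forms the core of the filament, stood at 2307, 1395 and 878 CPM in Sham replicates 1 to 3. In SCI it was 291, 176 and 61.6 CPM, and in SCI + SCS it was 275, 360 and 612 CPM. Every injured library was below every Sham library, and the highest SCI library lay above the lowest SCI + SCS library. Nefl fell 8.78-fold in SCI (log2FC -3.13 ± 0.64, SE, n = 3 and 3, adjusted p = 0.00808 by edgeR).

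Nefm, which carries side arms that space the filaments, followed Nefl library by library. Its levels were 2474, 1401 and 962 CPM in Sham, 359, 199.97 and 80.5 CPM in SCI and 327, 399 and 647 CPM in SCI + SCS. It fell 7.67-fold in SCI (log2FC -2.94 ± 0.62, adjusted p = 0.00906 by edgeR). As for Nefl, SCI replicate 1 was above SCI + SCS replicate 1, and no injured library reached the Sham range.

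Nefh, the heavy chain, whose long phosphorylated tail is laid down late in axon maturation, fell less. It measured 1989, 1165 and 803 CPM in Sham, 536, 263 and 134 CPM in SCI and 458, 497 and 759 CPM in SCI + SCS. The highest SCI + SCS library came close to the lowest Sham library without reaching it. The fall in SCI was 4.30-fold (log2FC -2.10 ± 0.57, adjusted p = 0.0219 by edgeR). The call was lost without SCI replicate 2 (adjusted p = 0.0752), without Sham replicate 1 (0.0555) and without Sham replicate 2 (0.0504), while log2FC stayed between -2.75 and -1.68 over the 6 fits that left out a library.

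Ina, the subunit that central neurons make before the other chains and keep in adult filaments, had the lowest FPKM (the level per length) of the 4 subunits in every library. It was 289, 222 and 167 CPM in Sham, 72.7, 41.7 and 25.6 CPM in SCI and 70.8, 88.5 and 102 CPM in SCI + SCS. It fell 4.91-fold in SCI (log2FC -2.29 ± 0.41, adjusted p = 0.00531 by edgeR). The Sham libraries stood clear of the rest, and SCI replicate 1 again lay just above SCI + SCS replicate 1.

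**Figure D1:**
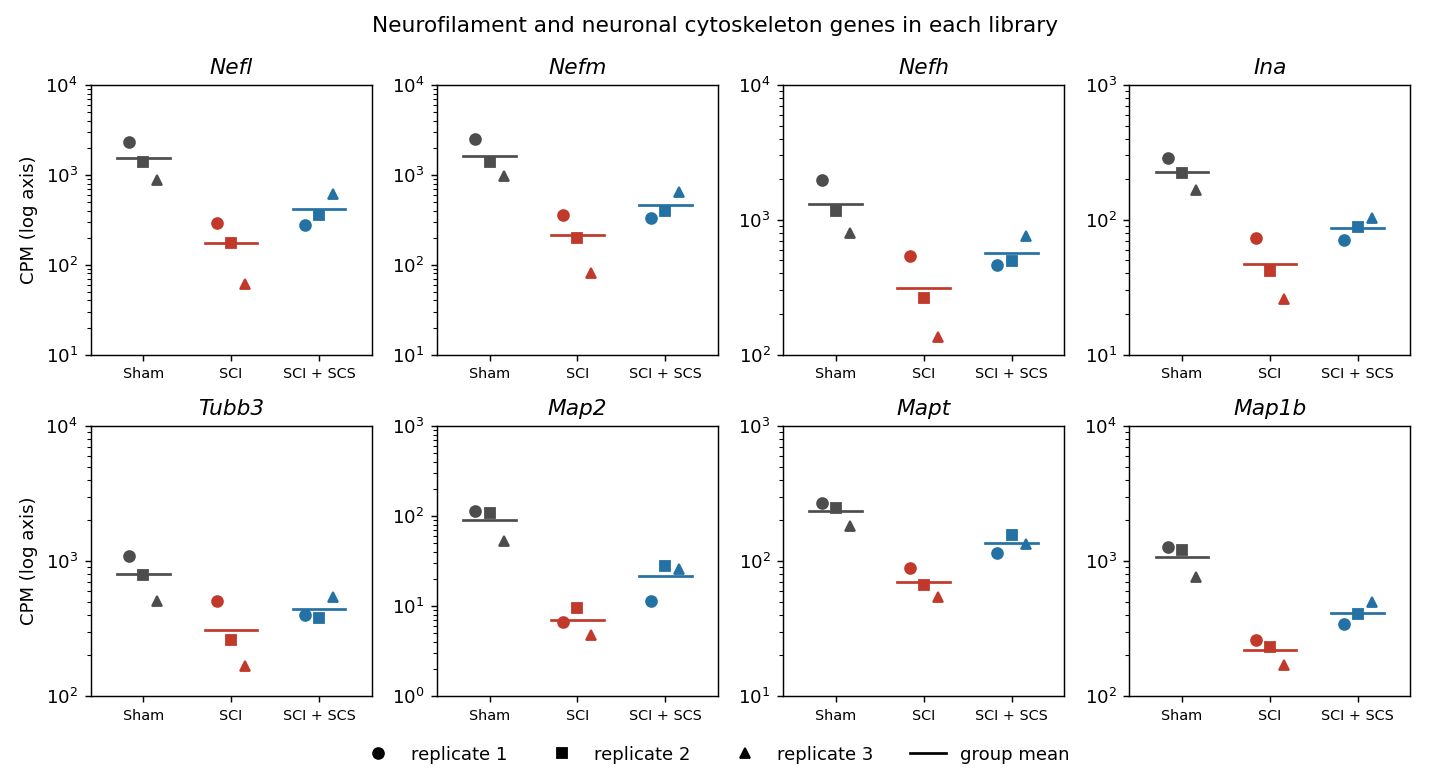
CPM of each member (log axis) in the Sham, SCI and SCI + SCS libraries, with a symbol for each replicate and a line at the group mean. Within SCI, replicate 3 was the lowest library for all 8 genes, and only for Tubb3 did an SCI library (505.2 CPM) reach the Sham range (lowest 505.0 CPM).

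Among the microtubule genes, Tubb3, whose product is the tubulin used to mark neurons, changed the least. It was 1091, 793 and 505.0 CPM in Sham, 505.2, 260 and 167 CPM in SCI and 396, 377 and 542 CPM in SCI + SCS. SCI replicate 1 and Sham replicate 3 had nearly the same level, so that the groups touched. Tubb3 fell 2.602-fold in SCI (log2FC -1.38 ± 0.46, adjusted p = 0.0450 by edgeR). The call was lost without SCI replicate 2 (adjusted p = 0.129), SCI replicate 3 (0.103), Sham replicate 1 (0.117) or Sham replicate 2 (0.0986).

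Map2, which stabilizes dendritic microtubules, fell the most. It went from 114, 108 and 52.9 CPM in Sham to 6.67, 9.42 and 4.79 CPM in SCI, with 11.4, 27.8 and 26.0 CPM in SCI + SCS. The 3 groups did not overlap. The fall in SCI was 13.3-fold (log2FC -3.74 ± 0.40, adjusted p = 0.00149 by edgeR), and 0.544% of the genes tested fell further.

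Mapt, which encodes tau, was 268, 249 and 183 CPM in Sham, 88.7, 66.6 and 54.3 CPM in SCI and 115.1, 156 and 134 CPM in SCI + SCS. Map1b was 1276, 1201 and 762 CPM in Sham, 262, 232 and 168 CPM in SCI and 339, 401 and 493 CPM in SCI + SCS. For both genes the 3 groups stood apart, with SCI + SCS between the other two. Mapt fell 3.39-fold (log2FC -1.76 ± 0.23, adjusted p = 0.00227 by edgeR) and Map1b 4.96-fold (log2FC -2.31 ± 0.27, adjusted p = 0.00175 by edgeR) in SCI. Map2, Mapt and Map1b had the smallest standard errors of the 8, and their calls held in each fit that left out a library, as did those of Nefl, Nefm and Ina.

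Markers of other cells moved in the same libraries. The summed markers of motor neurons (5 of 6 listed genes, Chat, Slc5a7, Isl1, Mnx1 and Chodl) were 77.2 to 200.4 CPM in Sham, 10.7 to 36.2 CPM in SCI and 39.7 to 59.3 CPM in SCI + SCS, and within each group they had the same order of replicates as Nefl. Oligodendrocyte markers (8 of 8) went from 59099 to 83590 CPM in Sham to 17860 to 33389 CPM in SCI and 31003 to 36776 CPM in SCI + SCS. Microglia and macrophage markers (7 of 7) were 478 to 709 CPM in Sham, 1484 to 2004 CPM in SCI and 1485 to 1913 CPM in SCI + SCS. Fibroblast markers (5 of 5) were 317 to 1403, 2302 to 3389 and 1446 to 2388 CPM, and Schwann cell markers (5 of 5) were 4342 to 6916, 8596 to 12674 and 6689 to 14403 CPM. Skeletal muscle markers (5 of 7) were 2347 CPM in SCI replicate 1 and 678 CPM in SCI replicate 3, and 9.4 to 47.7 CPM in the other 7 libraries. Dorsal root ganglion neurons also contain much neurofilament. Their summed markers (7 of 7) were 74.5, 398 and 32.1 CPM in Sham replicates 1 to 3. In SCI they were 17.9 to 23.4 CPM, and in SCI + SCS 42.6 to 53.7 CPM. Astrocyte markers (6 of 6) were 3642 to 7190 CPM in Sham, 5826 to 9031 in SCI and 8920 to 11646 in SCI + SCS. Most of this sum was Gfap, with means of 3777, 5874 and 8674 CPM. Between SCI and Sham the median log2FC of the astrocyte markers was -0.55, and edgeR called 2 lower and 0 higher. Slc1a2 (-1.61) and Slc1a3 (-0.79) were called lower. Aqp4 (-0.58) and Aldh1l1 (-0.53) were lower, and Gfap (0.62) and Gja1 (0.17) higher, without a call. Adipocyte markers (5 of 5) were 3.2 to 9.6, 88.4 to 116.5 and 27.2 to 43.7 CPM. The only marker without counts in a whole group was Adipoq, of adipocytes, in SCI + SCS. The part of these cell types in the fall of the members was not tested.

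The next question was whether stimulated cords differed from injured cords. Every member had a higher mean in SCI + SCS than in SCI, but edgeR called 0 of the 8. It called a single gene of 17663 higher (0.00566%) and none lower. The median log2FC of the members was 0.93, beside -0.006 over all genes. At an unadjusted p under 0.05, edgeR had 4 members higher (Map2, Mapt, Map1b and Ina) against 13.3% of all genes, and 4274 genes in either direction. Map2, Mapt and Map1b were also the 3 members whose SCI + SCS libraries all stood above the SCI libraries, as 15.6% of all genes did.

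The largest difference was that of Map2, 3.14-fold (log2FC 1.65 ± 0.38, adjusted p = 0.0887 by edgeR). Mapt was 1.94-fold higher (log2FC 0.96 ± 0.20, adjusted p = 0.0817) and Map1b 1.88-fold higher (log2FC 0.91 ± 0.20, adjusted p = 0.0857). Ina had a log2FC of 0.91 ± 0.36 (adjusted p = 0.180), Nefl of 1.24 ± 0.55 (0.220), Nefm of 1.11 ± 0.52 (0.240), Nefh of 0.89 ± 0.47 (0.299) and Tubb3 of 0.51 ± 0.38 (0.459). The standard errors of Nefl, Nefm and Nefh were more than 2 times those of Mapt and Map1b. Over the 6 fits that left out a library, log2FC ran from 0.83 to 1.80 for Nefl, from 0.71 to 1.70 for Nefm, from 0.798 to 1.15 for Mapt and from 0.738 to 1.04 for Map1b, so that the order of these genes was not fixed.

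DESeq2, the tool named in the study's methods, called 4 members higher in SCI + SCS with almost the same fold changes. Of the 22068 genes to which it gave a p-value, 6.48% were called higher and 5.03% lower. Some of these genes had no adjusted p and could not be called. The adjusted p from DESeq2 was 0.000299 for Mapt, 0.000327 for Map2, 0.000712 for Map1b and 0.0485 for Ina, and between 0.198 and 0.378 for Nefl, Nefm, Nefh and Tubb3. In edgeR, only Map2 was called in any fit that left out a library, without SCI + SCS replicate 1 (adjusted p = 0.0499). The call for Map2, Mapt, Map1b and Ina between stimulated and injured cords therefore depended on the test. Nefl, Nefm, Nefh and Tubb3 were called by neither edgeR nor DESeq2.

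**Figure D2:**
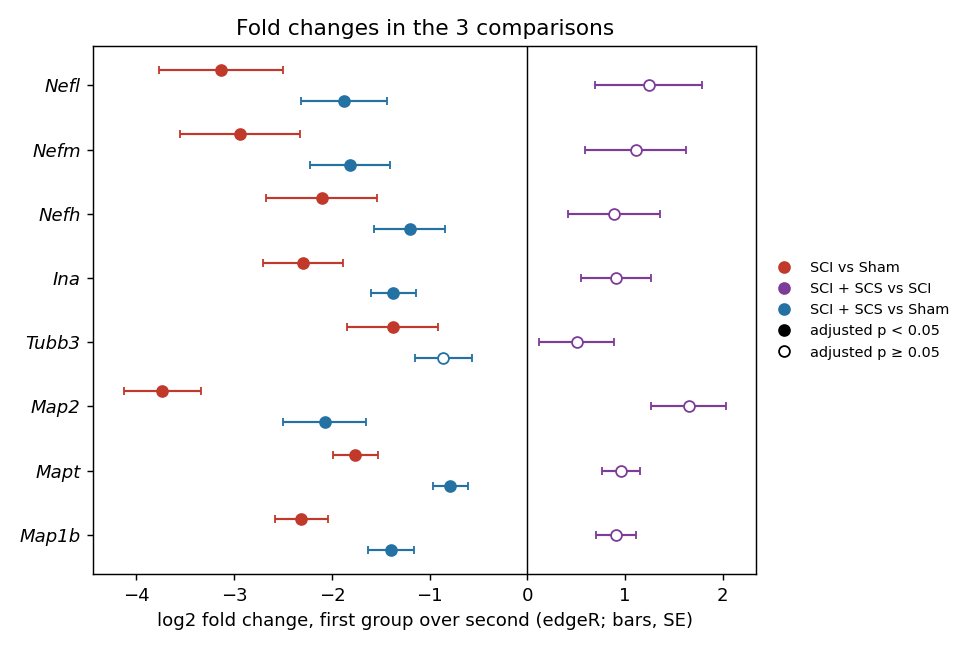
log2FC of each member by edgeR in the 3 comparisons, with bars of 1 SE and filled points where the adjusted p was under 0.05. All points of both comparisons with Sham lie below 0, all points of SCI + SCS against SCI lie above 0 and are open.

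Set against Sham, the stimulated cords still had less of every member. edgeR called 7 of the 8 lower, and 6 of these were downregulated DEGs. Of the 17640 genes tested, 16.2% were called lower, 16.2% were called higher and 5.44% were downregulated DEGs. For 7 members, all but Tubb3, the SCI + SCS libraries all lay below the Sham libraries, which held for 26.2% of all genes. The comparison shares its Sham libraries with that of SCI against Sham, and its stimulated libraries with that of SCI + SCS against SCI, so that the 3 sets of values are not independent.

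Map2 was 4.21-fold lower in SCI + SCS than in Sham (log2FC -2.07 ± 0.43, adjusted p = 0.0158 by edgeR), Nefl 3.67-fold lower (-1.88 ± 0.44, 0.0217) and Nefm 3.52-fold lower (-1.82 ± 0.41, 0.0203). Map1b was 2.62-fold lower (log2FC -1.39 ± 0.24, adjusted p = 0.00972), Ina 2.59-fold lower (-1.37 ± 0.23, 0.00950) and Nefh 2.31-fold lower (-1.21 ± 0.36, 0.0461). Mapt was 1.73-fold lower (log2FC -0.79 ± 0.18, adjusted p = 0.0200), and Tubb3 had a log2FC of -0.86 ± 0.29 (adjusted p = 0.0652). Ina and Map1b kept their calls whichever library was left out. Nefl and Nefm lost theirs without Sham replicate 2, SCI + SCS replicate 1 or SCI + SCS replicate 2 (adjusted p from 0.0570 to 0.0789), Mapt without Sham replicate 2, SCI + SCS replicate 1 or SCI + SCS replicate 3 (0.0613 to 0.0739) and Map2 without Sham replicate 2 (0.0572). Nefh was called only in the fit without Sham replicate 3 (adjusted p = 0.0165, and 0.0579 to 0.150 in the other 5). Tubb3 was called without Sham replicate 3 (adjusted p = 0.0134) and by DESeq2 (0.0112). In all, 2 members were called without Sham replicate 2, 3 without SCI + SCS replicate 1 and 4 without SCI + SCS replicate 2. Calls over all genes fell as well, in either direction, from 5710 of 17640 in the main fit. In the same 3 fits they were 2149 of 17927, 2152 of 17917 and 2825 of 17939. The calls of Mapt and Nefh were also lost in all 3 limma fits on FPKM (adjusted p from 0.0602 to 0.0867 and from 0.0523 to 0.0804), that of Map2 in the limma fit without a filter (0.0689), and that of Nefh in the edgeR fits of all 9 libraries (0.0964) and without a filter (0.0505).

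Levels of different genes were compared per length, on the scale of FPKM, within a library. In the 3 Sham libraries the order was the same, Nefl, Nefm, Tubb3, Nefh, Map1b, Ina, Mapt and Map2. In all 6 injured libraries Tubb3 was first, with 79.2 to 206 FPKM in SCI and 175 to 254 FPKM in SCI + SCS. Map1b was the fifth and Map2 the last of the 8 in all 9 libraries. Over rats the neighbours overlapped at the top of the Sham order, with 345 to 893 FPKM for Nefl, 251 to 635 for Nefm, 228 to 486 for Tubb3 and 166 to 406 for Nefh, so that the order within each library was steadier than the levels themselves. Further down, Map1b at 51.2 to 84.5 FPKM overlapped Ina at 40.1 to 68.4, Ina did not overlap Mapt at 25.6 to 38.2, and Map2 at 6.22 to 12.5 stood apart. In SCI, Ina at 6.46 to 15.8 FPKM and Mapt at 9.61 to 12.7 overlapped and changed places between libraries. The length behind the FPKM of Mapt, described below, had a mean of 6950 bases in Sham and 6164 in SCI. That of Ina stayed at 4093 bases. A shorter length raises FPKM, so the places of these genes also depend on the length.

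The make-up of the neurofilament mRNA pool differed as well. The FPKM ratio of Nefl to Nefh was 2.198, 2.27 and 2.07 in Sham, 1.03, 1.27 and 0.869 in SCI and 1.14, 1.37 and 1.53 in SCI + SCS. The ratio of Nefm to Nefh was 1.56, 1.51 and 1.51 in Sham, 0.842, 0.955 and 0.754 in SCI and 0.897, 1.01 and 1.07 in SCI + SCS. For both ratios all Sham libraries lay above all injured libraries, and the SCI and SCI + SCS libraries overlapped. The light and medium chains kept a closer ratio to each other, 1.38 to 1.501 in Sham, 1.15 to 1.33 in SCI and 1.27 to 1.43 in SCI + SCS, and only the Sham and SCI libraries were apart. The ratio of Tubb3 to Nefl was 0.544 to 0.661 in Sham, 1.69 to 3.12 in SCI and 1.02 to 1.66 in SCI + SCS, so that here all 3 groups were apart. With 3 rats against 3, an exact permutation test cannot give a two-sided p under 0.1, and the ratios are given without a test.

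**Figure D3:**
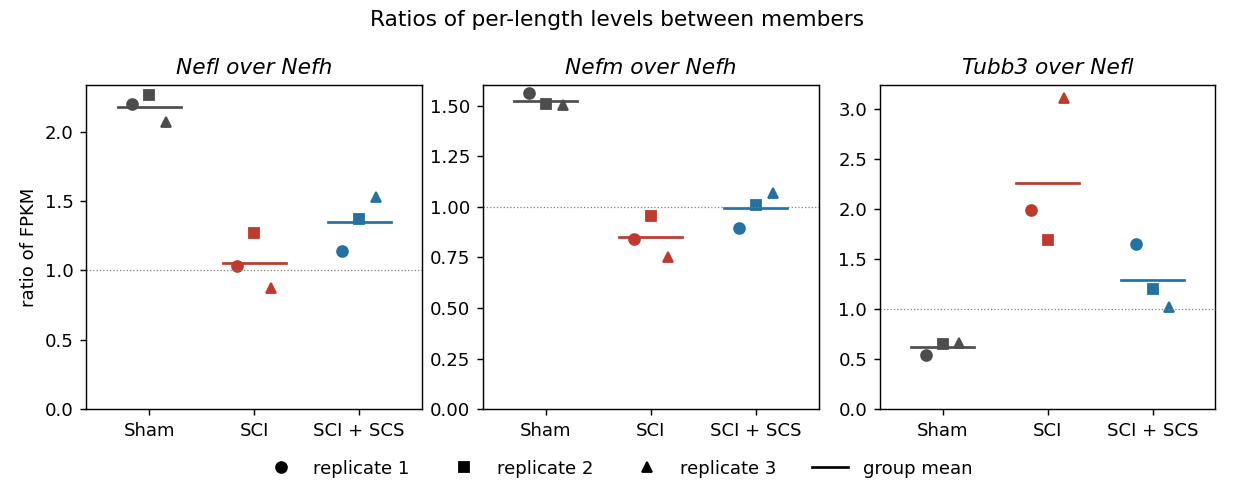
FPKM ratios of Nefl to Nefh, Nefm to Nefh and Tubb3 to Nefl in each library, with a line at the group mean and a dotted line at a ratio of 1. The Sham libraries lie at 2.07 to 2.27, 1.51 to 1.56 and 0.544 to 0.661, outside the range of the injured libraries in each panel.

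To see whether the members moved with other neuronal genes, each was set against the mean log2 CPM of the 9 pan-neuronal genes in its library. On this scale Map2 was lower in SCI than in Sham by a difference of -1.46 log2 units and Nefl by -1.04, without overlap of the libraries, while Nefm differed by -0.83 with overlap. Tubb3 (0.79) and Mapt (0.48) were higher in SCI without overlap. Nefh (0.03), Ina (-0.14) and Map1b (-0.05) differed by less than the pooled SD of the libraries, 0.48, 0.27 and 0.09. Between SCI + SCS and Sham, Map2 (-0.92), Nefl (-0.67), Nefm (-0.59), Map1b (-0.20) and Ina (-0.17) were lower without overlap, Tubb3 (0.37) was higher, and Mapt (0.40) and Nefh (0.04) overlapped. Stimulated and unstimulated injured libraries overlapped for every member but Map1b, which was lower in SCI + SCS (-0.15).

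The choice of reference moved these differences. With Rbfox3 (the nuclear marker NeuN), Snap25 and Eno2 alone, every member's difference between SCI and Sham shifted by -0.44 log2 units, so that Tubb3 was at 0.35, Mapt at 0.04, Nefh at -0.41, Map1b at -0.49, Ina at -0.58, Nefm at -1.26, Nefl at -1.47 and Map2 at -1.90. The direction of Nefh therefore changed with the reference in both comparisons with Sham, while the order of the members did not, since they share the reference. Between SCI + SCS and Sham the shift was -0.31, which left Tubb3 at 0.06, Mapt at 0.09, Nefh at -0.27, Ina at -0.48, Map1b at -0.50, Nefm at -0.90, Nefl at -0.98 and Map2 at -1.23. The difference of Map1b between SCI + SCS and SCI went from -0.15 to -0.01. The pan-neuronal genes themselves spread widely. Syt1, a calcium sensor of synaptic vesicles, had a log2FC of -3.51 between SCI and Sham, Elavl3 and Elavl4, which encode neuronal RNA-binding proteins, had -3.10 and -2.34, and Eno2, a glycolytic enzyme of neurons, had -1.44. All 9 were called lower in SCI, with a median log2FC of -2.16, and 8 of 9 in SCI + SCS against Sham.

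**Figure D4:**
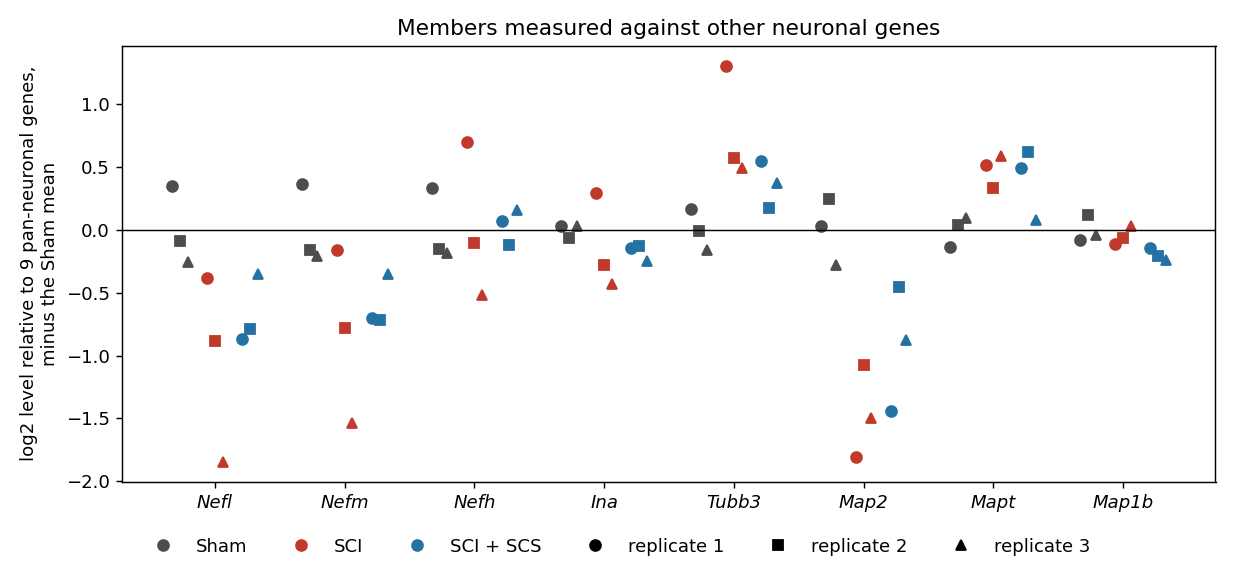
Log2 level of each member relative to the mean of 9 pan-neuronal genes, minus the Sham mean, in each library. Map2 is below 0 in all 6 injured libraries, Tubb3 and Mapt are above 0 in all 6, and Nefh and Ina spread around 0 in SCI.

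The Map2 and Mapt rows differed between libraries in a further way. Counts divided by FPKM, with the library total taken out, give the gene length that the authors' FPKM used, and for Nefl (2500 bases), Nefm (3770), Ina (4093) and Tubb3 (2175) this length was the same in all 9 libraries within 0.1%. For Map2 it was 8870, 8750 and 8363 bases in Sham, 7633, 5575 and 4743 bases in SCI and 4611, 5143 and 5392 bases in SCI + SCS. Each injured library had a shorter length than each Sham library. The mean length of Map2 was 30.9% shorter in SCI and 41.7% shorter in SCI + SCS than in Sham, and of 11638 genes with at least 200 counts in every library, 11 and 1 had a smaller ratio. Mapt went from 6799 to 7040 bases in Sham to 5833 to 6476 bases in SCI and 5986 to 6220 bases in SCI + SCS, again without overlap with Sham, and 107 and 67 genes had a smaller ratio. The median gene varied 1.00324-fold between its longest and shortest library.

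Map2 and Mapt are both known to be spliced into transcripts of different length. How the authors' length was set in each library is not given in the sources used here, and transcripts were not counted apart, so that the make-up of their transcripts was not tested. The FPKM of Map2 and Mapt is raised where the length is short. The log2(FPKM + 1) scale also understates the change of low genes. On it the difference of Map2 between SCI and Sham was -2.34, against a log2FC of -3.74 from counts.

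**Figure D5:**
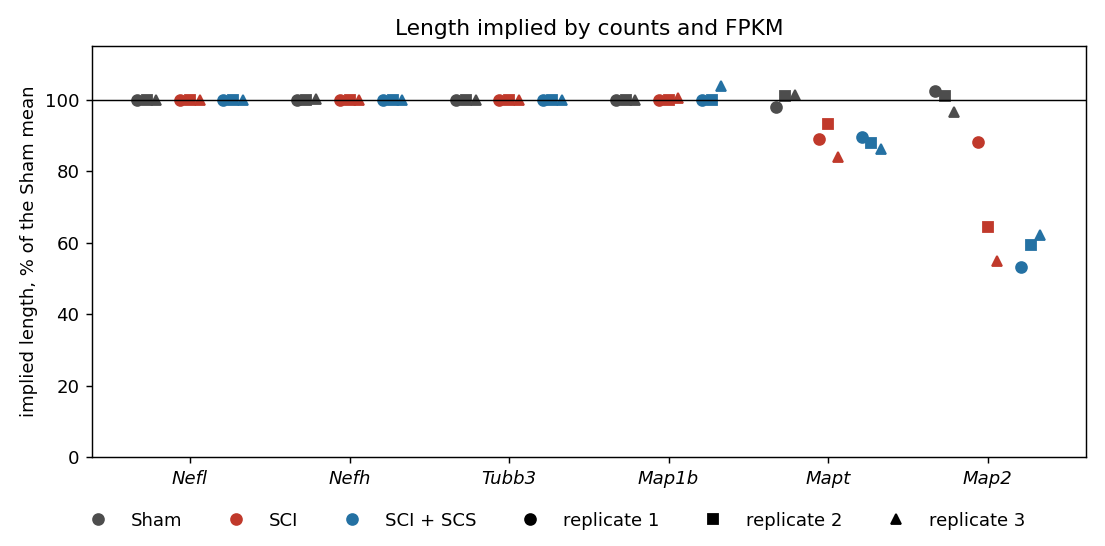
Length implied by counts and FPKM in each library, as a percentage of the Sham mean, for 6 members. Nefl, Nefh and Tubb3 stay at 100%, Map1b departs in a single SCI + SCS library, and Mapt and Map2 are below every Sham library in all 6 injured libraries.

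The other intermediate filament genes did not follow the neurofilaments. Of 8, edgeR called 1 lower and 4 higher in SCI. The lower gene was Prph (peripherin, of motor and sensory neurons), with mean levels of 266 CPM in Sham and 58.1 CPM in SCI (log2FC -2.21, adjusted p = 0.0242). Des, the desmin of muscle, rose from 13.7 to 82.1 CPM (log2FC 2.56, adjusted p = 0.00210). Its rise was not limited to the libraries with high muscle markers. In SCI replicate 2 the muscle markers were at 9.4 CPM and Des at 46.3 CPM, against 11.6 to 16.9 CPM of Des in Sham. SCI replicates 1 and 3, with muscle markers at 2347 and 678 CPM, had the most Des (94.98 and 104.9 CPM). The part of muscle in the rise of Des was not tested. Vim, the vimentin of glia and fibroblasts, rose from 616 to 3223 CPM (2.38, 0.0130), and Krt8 and Nes also rose. Gfap, the filament of astrocytes, was at 3777, 5874 and 8674 CPM in Sham, SCI and SCI + SCS and was called higher in SCI + SCS against Sham (log2FC 1.205, adjusted p = 0.0396). It was not called between SCI + SCS and SCI by edgeR (log2FC 0.57, adjusted p = 0.165), but it was by DESeq2 (adjusted p = 0.0378), which called Des (log2FC -1.41) and Krt8 (-0.82) lower there.

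Of 9 other tubulin genes measured, 5 were called lower and 1 higher in SCI, with a median log2FC of -1.03. Tubb4a (log2FC -1.45) and Tuba4a (-1.45), tubulins of mature neurons and glia, fell about as much as Tubb3, and Tubb6, a tubulin found in many cell types, rose from 19.7 to 83.3 CPM (2.07). Tubb5 had 661, 624 and 643 CPM in the 3 groups and was not called. Against Sham, the stimulated cords again had 5 lower and 1 higher. Tubulin genes are close copies of each other, and reads that fit several of them may have been split in a way that the sources used here do not state.

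Of 20 other microtubule-binding genes, 16 were called lower and 1 (Mapre1, which tracks growing ends) higher in SCI, with a median log2FC of -1.13. The largest falls were those of Map6d1 (log2FC -3.18), which stabilizes microtubules, Tppp (-2.74), which bundles them in oligodendrocytes, and Map7d2 (-2.34), which helps kinesin to bind. Motor proteins were lower almost without exception, with 11 of 12 called lower and 0 higher. They included Kif5c (-2.88) and Kif5a (-1.98), the neuronal kinesin heavy chains, and Dync1i1 (-2.82), the neuronal dynein intermediate chain. Of 9 genes of the membrane scaffold of the axon, 8 were called lower, among them Ank2 (-2.31) and Ank3 (-1.76), ankyrins that tie membrane proteins to spectrin. Sptan1, the α-spectrin that many cell types share, was not called (-0.18).

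Among 17 kinases, phosphatases and turnover factors that act on these proteins, 10 were called lower and 1 higher in SCI, with a median log2FC of -0.78. Among those that fell were Cdk5r2 (log2FC -2.29), a neuronal activator of the kinase Cdk5, and Ppp2r2b (-1.77), a regulatory subunit of the phosphatase PP2A. Cast, which inhibits the calpains that cut neurofilaments, was the gene called higher (0.65), and the calpains Capn1 (0.10) and Capn2 (-0.03) were not called. Between SCI + SCS and SCI, edgeR called no gene of any of these lists, as among the members. DESeq2 called 4 of 12 motor genes, 7 of 9 scaffold genes, 5 of 20 microtubule-binding genes, 6 of 17 kinases, phosphatases and turnover factors and 6 of 9 pan-neuronal genes higher in SCI + SCS than in SCI, and at an unadjusted p under 0.05 edgeR had 5, 7, 10, 6 and 7 of these higher. No other tubulin gene was called by DESeq2 there, and edgeR had 2 higher and 1 lower at an unadjusted p under 0.05.

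The genes with the profile nearest to the neurofilament triplet were found by the root mean square difference of log2 CPM, relative to the Sham mean, over the 9 libraries. Of 15407 genes compared, the nearest were Tlcd3b (0.172), Syt2 (0.208), Vwc2l (0.214), Nat8l (0.229) and Mcf2 (0.295), against a median distance of 2.01. Among the members, Nefm itself was at 0.163, Nefl at 0.298, Ina at 0.392, Nefh at 0.457 and Tubb3 at 0.950. All 5 listed genes therefore lay nearer to the triplet's mean than Nefl and Nefh did. The list was cut at 5 genes, and how many others lay nearer than these members was not counted. Syt2, a synaptotagmin of fast synapses, had means of 41.0, 5.99 and 13.8 CPM in Sham, SCI and SCI + SCS, and Nat8l, which makes N-acetylaspartate in neurons, had 341, 49.2 and 113 CPM. Nearest to Map2 were Scrt1 (0.137), a neuronal transcription factor, Sez6l (0.170), Kcnab2 (0.190), Golga7b (0.280) and Unc80 (0.283), a subunit of the sodium leak channel complex, with a median of 2.52 over all genes. Scrt1 had means of 22.7, 1.71 and 5.41 CPM in Sham, SCI and SCI + SCS and a log2FC of -3.75 between SCI and Sham. These distances describe 9 libraries of bulk tissue from the same cord segments, and no test was made of them.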

How the data were processed

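RNA was sequenced from 3 Sham, 3 SCI and 3 SCI + SCS rats, grouped by the labels. The mRNA was enriched on oligo(dT) beads, and the submitters' processing notes name fastp 0.23.2, HISAT2 2.2.1 and mRatBN7.2. The counting program and annotation are not given in the sources used here. The authors deposited raw counts per gene, without normalization, and FPKM, the counts relative to the length of the gene and the depth of the library. Rows without a symbol held 1.40% to 1.52% of the counts and stayed in the fits.

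The counts were fitted by edgeR 4.0.16 under R 4.3.3, with TMM, its default low-count filter, a quasi-likelihood test and no covariates, using the 6 libraries compared. SE is the size of log2FC divided by the square root of F. Alternatives were DESeq2 1.42.0, other filters and normalization, all libraries in one fit, a replicate block, removal of muscle and adipocyte genes, leaving out each library, and limma 3.58.1 on log2(FPKM + 1) or log2(FPKM + 0.1) with a minimum mean FPKM of 0.1 or none. The tests were checked on simulated data. Members and lists were chosen with earlier results of these data known. All members were named, and from each list the 3 called genes with the largest |log2FC| in SCI against Sham, with other genes chosen after their values were seen. Some genes that this rule selects are not reported here. No pair of libraries of the same group agreed within sampling noise.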

Additional observations from a re-analysis of the deposited data

How the results depend on the processing

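The log2FC of the members kept its direction in each of the 16 alternatives of each comparison. In SCI against Sham, 121 of 128 values stayed on the same side of the threshold, and the other 7 were those of Nefh and Tubb3 without a library. In SCI + SCS against SCI, 123 of 128 stayed and 5 were newly called. In SCI + SCS against Sham, 95 stayed, 31 lost the call and 2 gained it.

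In SCI + SCS against SCI, the count of called genes was 1 by edgeR, 2541 by DESeq2, 0 with at least 10 counts in every library, 31 by limma on log2(FPKM + 1), 19 on log2(FPKM + 0.1) and 0 to 169 without a library. Members called there were 0, against 4 by DESeq2 and 0 to 1 without a library. In SCI + SCS against Sham, called genes were 5710 and members 7, against 2149 to 6637 genes and 2 to 8 members without a library, and 4 members by limma on log2(FPKM + 1) with no filter. The cause of these differences was not tested.

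The sources used here name nothing that same-numbered libraries share beyond the number. The correlation of their deviations from the group means was -0.33 to 0.24. With the replicate block, edgeR called 8 members in SCI against Sham, 0 members and 0 genes in SCI + SCS against SCI, and 0 members and 1259 genes in SCI + SCS against Sham.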
